A study of Mus musculus with 15 samples.

Results

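Club cells are the secretory cells of the conducting airways, and 7 genes that mark them or secretory airway cells in general were followed in embryonic mouse lungs: Scgb3a2, Scgb3a1, Scgb1a1, Cyp2f2, Cbr2, Cldn10 and Upk3a. They were taken by gene symbol from the 23420 genes in the count tables, and all 7 were present. RNA was sequenced from whole lungs of wildtype CD1 mice, an outbred strain, in 15 libraries of 5 groups with 3 replicates each. Lungs taken at E12.5 (E gives the embryonic day) were cultured for 48 h at high transmural pressure (3 lungs pooled per library) or at low transmural pressure (6 lungs pooled). Transmural pressure is the pressure difference across the airway wall. Fresh lungs were taken at E12.5 (6 lungs pooled), E13.5 and E14.5 (3 lungs pooled each). The design asks how these genes differed with pressure in culture and how they differed over the same 2 days in the embryo. Because a library is a pool, embryos within it cannot be told apart, and the labels do not say whether replicates came from separate litters, so p-values measure the spread between these libraries.

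Secretoglobins are small proteins that secretory airway cells release into the airway lining, and Scgb1a1 encodes the club cell secretory protein that classically defines the cell type in adult airways. Cyp2f2 encodes a cytochrome P450 enzyme that oxidizes inhaled compounds such as naphthalene, Cbr2 a lung carbonyl reductase, Cldn10 a claudin of the tight junction, and Upk3a a uroplakin best known from the bladder lining and also found in a subset of club cells. In mouse lung development Scgb3a2 is an early secretory gene of the growing airways, whereas abundant Scgb1a1 is a feature of later stages, and secretory fate in the airway depends on Notch signalling and on the transcription factor Nkx2-1.

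The sequence upstream of the start site is shown for 3 of the genes whose levels differed with pressure or were seen at high pressure alone, and for Cldn10 at the more upstream of its RefSeq starts. Sequences are from RefSeq on GRCm38.p6, read 5′ to 3′ toward the gene, with bases that GENCODE M21 places in an exon left off. Capitals mark matches, on either strand, to CAAGTG (the core bound by NKX2-1) or TGTTTNC (bound by FOXA factors). They are the windows chr7:27119705-27119908 (plus strand, Cyp2f2), chr11:120732115-120732271 (minus strand, Cbr2), chr11:49663345-49663594 (plus strand, Scgb3a1) and chr14:118787621-118787870 (plus strand, Cldn10).
Cyp2f2: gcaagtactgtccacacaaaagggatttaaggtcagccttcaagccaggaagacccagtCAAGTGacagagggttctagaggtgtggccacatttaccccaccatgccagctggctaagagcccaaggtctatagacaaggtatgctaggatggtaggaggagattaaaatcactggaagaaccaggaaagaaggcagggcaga
Cbr2: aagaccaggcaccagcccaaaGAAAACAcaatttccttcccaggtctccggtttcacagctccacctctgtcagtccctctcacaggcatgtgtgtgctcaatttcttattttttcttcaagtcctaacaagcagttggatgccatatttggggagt
Scgb3a1: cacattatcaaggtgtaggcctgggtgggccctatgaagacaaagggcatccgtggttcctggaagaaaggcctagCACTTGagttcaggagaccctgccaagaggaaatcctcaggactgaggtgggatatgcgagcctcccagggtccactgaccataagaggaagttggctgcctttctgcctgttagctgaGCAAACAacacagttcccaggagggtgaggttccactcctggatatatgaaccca
Cldn10: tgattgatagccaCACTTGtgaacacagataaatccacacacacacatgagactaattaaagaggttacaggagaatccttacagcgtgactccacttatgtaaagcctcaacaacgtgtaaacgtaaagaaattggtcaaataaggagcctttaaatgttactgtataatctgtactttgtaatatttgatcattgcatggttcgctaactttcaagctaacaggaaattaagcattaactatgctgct
The match in Cyp2f2 was CAAGTG, beginning 191 bases before the start, and that in Cldn10 was its reverse complement, 237 bases before the start. The Cbr2 match was the reverse complement of TGTTTNC, 229 bases before the start. Scgb3a1 held 1 match of each kind, at 174 bases for CAAGTG and 55 bases for TGTTTNC, both on the reverse strand. Over the 250 bases upstream of 32851 RefSeq starts, 11.6% held CAAGTG and 17.8% held TGTTTNC, so either is common. TTNNGCAA (bound by C/EBP factors, in 9.56% of starts), GTGGGAA (bound by RBPJ, 5.42%) and TATAAA (the TATA box, 12.4%) were searched as well and had no match in the full 250 bases upstream of these 4 starts. Of the starts searched but not shown, that of Upk3a had no match to CAAGTG or TGTTTNC and 1 to TTNNGCAA, 132 bases before it. The other Cldn10 start had 1 match to CAAGTG, 75 bases before it, within the 218 bases that the exon rule above leaves off at that start. A match is a string of letters, not a measured site.

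The genes lie apart in the genome (build mm10, GENCODE M21), except that Scgb3a1 and Cbr2 share chromosome 11 far from each other. Scgb3a2 (ENSMUSG00000038791.14) lies at chr18:43764289-43767399 on the plus strand, Scgb3a1 (ENSMUSG00000064057.12) at chr11:49663610-49665118 on the plus strand, and Scgb1a1 (ENSMUSG00000024653.2) at chr19:9083636-9087958 on the minus strand. Cyp2f2 (ENSMUSG00000052974.8) lies at chr7:27119909-27133660 on the plus strand, with Gm15883 overlapping on the other strand. Cbr2 (ENSMUSG00000025150.10) lies at chr11:120729489-120732114 on the minus strand, Cldn10 (ENSMUSG00000022132.15) at chr14:118787908-118875489 on the plus strand with n-R5s51 on the other strand, and Upk3a (ENSMUSG00000022435.6) at chr15:85017141-85022547 on the plus strand. All 7 are protein-coding. Reads of Cyp2f2 and Gm15883 cannot be told apart if strand was not used in counting, and whether it was is not given in the sources used here.

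Depth differed between the tables and 2 sets of libraries stood apart. Total counts were 40167255 to 44341263 at high pressure, 31843739 to 38288861 at low pressure and 18837343 to 21955244 in fresh lungs. Low pressure replicate 3 had counts in 14637 genes, against 16509 to 16726 in the other cultured libraries. Replicate 1 of each fresh stage had 3.59% to 4.36% of its counts in ribosomal protein genes, against 1.77% to 2.24% in fresh replicates 2 and 3. Lung and epithelial markers were present in every group: the group means of Nkx2-1 were 80.4 to 176 CPM and those of Epcam, a general epithelial adhesion molecule, 148 to 394 CPM. CPM is a read count scaled to a common library size by the TMM method. In such bulk RNA, more secretory cells and more RNA per secretory cell cannot be told apart.

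Detection split the 7 genes. Scgb3a2 and Cldn10 had counts in all 15 libraries. Upk3a had counts in 14 libraries but a total of only 63 reads, Cbr2 had counts in 11 and Cyp2f2 in 9. Scgb3a1 had 9 reads in all, 6 and 3 of them in high pressure replicates 1 and 2, and 0 in the other 13 libraries. Scgb1a1 had 0 reads in all 15 libraries. With this defining club cell marker unseen, the other genes are described by name, and no mature club cell is inferred from them. Taking 3 reads over the pooled libraries of a group as the limit, Scgb1a1 could have stood at up to 0.0237 CPM at high pressure, 0.0294 CPM at low pressure, 0.0477 CPM at E12.5, 0.0507 CPM at E13.5 and 0.0521 CPM at E14.5. These limits and the counting intervals below cover counting error only.

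**Figure D1:**
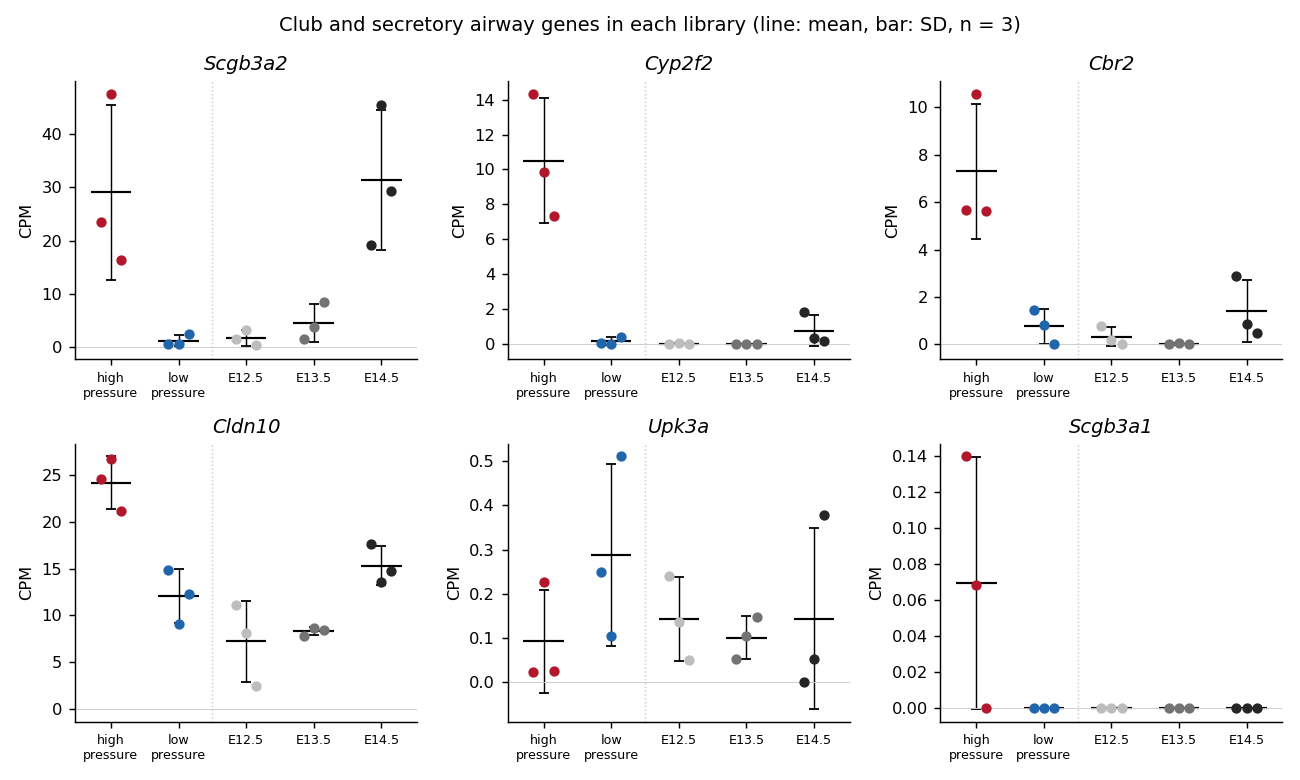
CPM (vertical axis, linear, a separate scale for each gene) of the 6 genes with any counts in each library of the 5 groups, with the group mean as a line and the SD as a bar (n = 3). Scgb3a2 was high at high pressure and at E14.5 (means of 29.1 and 31.3 CPM), whereas Cyp2f2 and Cbr2 were highest at high pressure and Upk3a stayed at or under 0.511 CPM in every library.

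High pressure lungs carried more RNA of 4 secretory genes than low pressure lungs. Scgb3a2, Cyp2f2, Cbr2 and Cldn10 were all higher at high pressure, by 4.58, 6.19, 3.26 and 1.0 on the log2 scale. The other 3 genes had too few counts to pass the filter of the test. These 4 genes were all that could be tested, so the count is no share of the 7. Across the 14937 genes tested 14.0% were called higher and 26.1% were called in either direction at an adjusted p below 0.05 (edgeR's quasi-likelihood test, Benjamini-Hochberg adjustment over all genes tested).

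Scgb3a2 stood at 23.4, 47.5 and 16.3 CPM in the high pressure libraries and at 0.653, 0.598 and 2.46 CPM in the low pressure libraries. Every high pressure library lay above every low pressure library, and the lowest high pressure value rests on 648 reads. The log2 fold change was 4.58 (SE 0.61, 95% interval 3.19 to 5.96, adjusted p = 0.00182). In pooled reads, 3747 at high pressure and 121 at low pressure stood in a ratio of 24.9 (counting interval 20.8 to 30.1).

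Cyp2f2, the naphthalene-oxidizing cytochrome, had the largest fitted fold change of the 4 tested genes, but it passed the count filter because of its level at high pressure: it reached the cutoff of 0.255 CPM in all 3 high pressure libraries and in 1 low pressure library. It stood at 14.3, 9.87 and 7.31 CPM at high pressure and at 0.0311, 0 and 0.415 CPM at low pressure. The low pressure values rest on 1, 0 and 13 reads, so 13 of its 14 low pressure reads came from replicate 3, the library with fewer detected genes. The log2 fold change was 6.19 (SE 0.80, adjusted p = 0.00163), and 9.24 without that library (adjusted p = 9.75e-06), where the fold change rests on a single low pressure read. The ratio of pooled reads was 77.1 (counting interval 45.8 to 141).

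Cbr2, the carbonyl reductase, stood at 5.67, 10.6 and 5.63 CPM at high pressure and at 1.43, 0.833 and 0 CPM at low pressure. It reached the filter cutoff in 2 of the low pressure libraries. The groups did not overlap, and the low value of 0 came from replicate 3, the library in which Scgb3a2 and Cyp2f2 had their highest low pressure values. The log2 fold change was 3.26 (SE 0.83, adjusted p = 0.0225). This call was lost under several settings: the adjusted p was 0.0584, 0.111 and 0.0652 without high pressure replicates 1, 2 and 3, 0.0587 without low pressure replicate 2, 0.0708 by DESeq2 and 0.0719 in 1 fit of all 15 libraries. Without low pressure replicate 3 the log2 fold change was 2.70 (adjusted p = 0.000381).

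Cldn10, the tight junction claudin, stood at 24.6, 26.7 and 21.1 CPM at high pressure and at 14.8, 9.11 and 12.2 CPM at low pressure. Unlike the other 3 genes it was well expressed in both groups, and it had the narrowest spread. Its log2 fold change of 1.0 (SE 0.19, adjusted p = 0.00741) is a change of about the size seen for the epithelial markers described below, and the call was lost in 1 fit of all 15 libraries (adjusted p = 0.111). All 4 genes had groups that did not overlap, as did 25.0% of all tested genes in the same direction. An exact permutation test of 3 against 3 libraries cannot give a two-sided p below 0.1, and it gave 0.1 for each of the 4.

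The remaining genes gave no call. Upk3a had 1, 10 and 1 reads at high pressure and 8, 4 and 16 reads at low pressure. The pooled ratio was 0.344 (counting interval 0.160 to 0.700), but the libraries overlapped: high pressure replicate 2, at 0.227 CPM, lay above low pressure replicate 2, at 0.104 CPM. With no filter, edgeR gave a log2 fold change of -1.59 for Upk3a (adjusted p = 0.443). For Scgb3a1 the 9 reads at high pressure stood 2.41-fold above a limit of 3 reads over the low pressure group, which had 0. Counting error in the 9 reads is not part of that value. High pressure replicate 3 also had 0 reads (two-sided exact permutation p = 0.4 for the groups).

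Epithelial RNA as a whole also made up more of the high pressure libraries. The summed CPM of 17 pan-epithelial genes (keratins, claudins, Epcam, Cdh1 and others) was 2214 to 2315 at high pressure and 1072 to 1220 at low pressure, and 15 of the 17 were called higher, with a median log2 fold change of 0.94 against 0.01 for all tested genes. The 4 secretory genes were therefore also expressed per 1000 counts of this epithelial sum. On that scale Scgb3a2 averaged 12.8 ± 6.88 at high pressure and 1.04 ± 0.848 at low pressure, Cyp2f2 4.68 ± 1.64 and 0.122 ± 0.190, and Cbr2 3.22 ± 1.17 and 0.652 ± 0.599 (SD, n = 3). Cldn10 averaged 10.7 ± 1.08 at high pressure and 10.2 ± 1.87 at low pressure.

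A fit that scaled each library to this epithelial sum, chosen after seeing the data, separated Cldn10 from the others. Scgb3a2 remained higher at high pressure by 3.63 on the log2 scale (SE 0.53, 95% interval 2.47 to 4.79), Cyp2f2 by 5.27 (SE 0.76, interval 3.58 to 6.96) and Cbr2 by 2.30 (SE 0.78, interval 0.58 to 4.01). Their adjusted p-values by edgeR were 9.95e-05, 0.000101 and 0.0197. For Cldn10 the difference was 0.06 (SE 0.18, interval -0.33 to 0.46, adjusted p = 0.759). The median of all genes on this scale was -0.94, and 1.25% of tested genes were higher. Of the 14937 tested genes, 10733 were called lower, so the adjustment raised p-values little. The unadjusted edgeR p of Cbr2 was 0.0132 here and 0.00398 in the fit with TMM scaling. Whether the epithelial share plays a part in the change of Cldn10 was not tested beyond this rescaling.

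**Figure D2:**
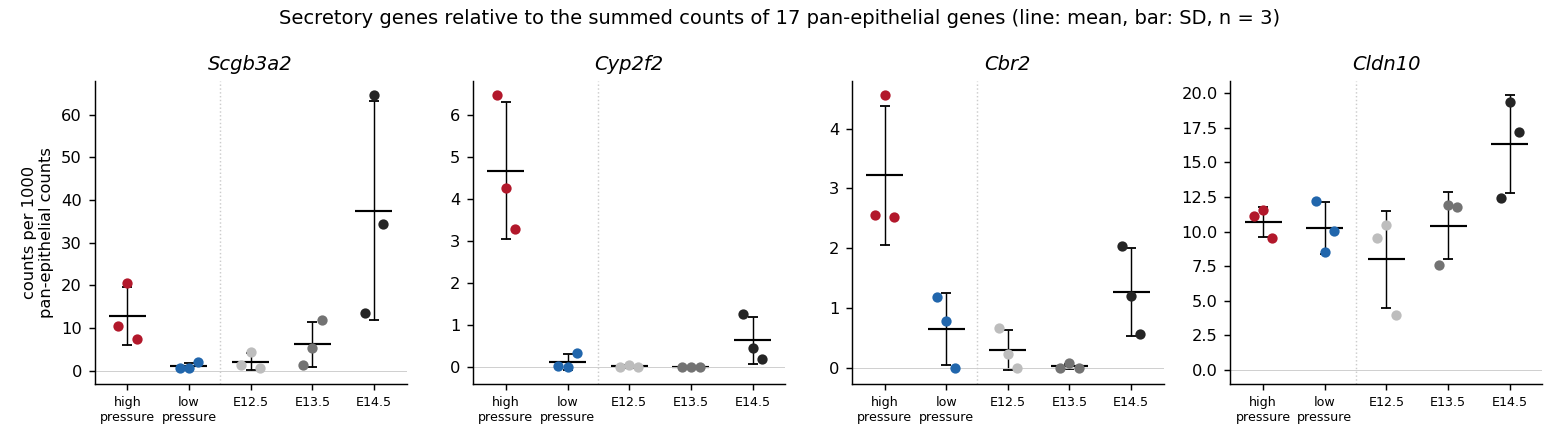
Counts of 4 secretory genes per 1000 summed counts of 17 pan-epithelial genes (vertical axis, linear, a separate scale for each gene) in each library of the 5 groups, with means and SD (n = 3). Scgb3a2, Cyp2f2 and Cbr2 lay higher at high than at low pressure, whereas Cldn10 averaged 10.7 at high and 10.2 at low pressure and 16.3 at E14.5.

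**Figure D3:**
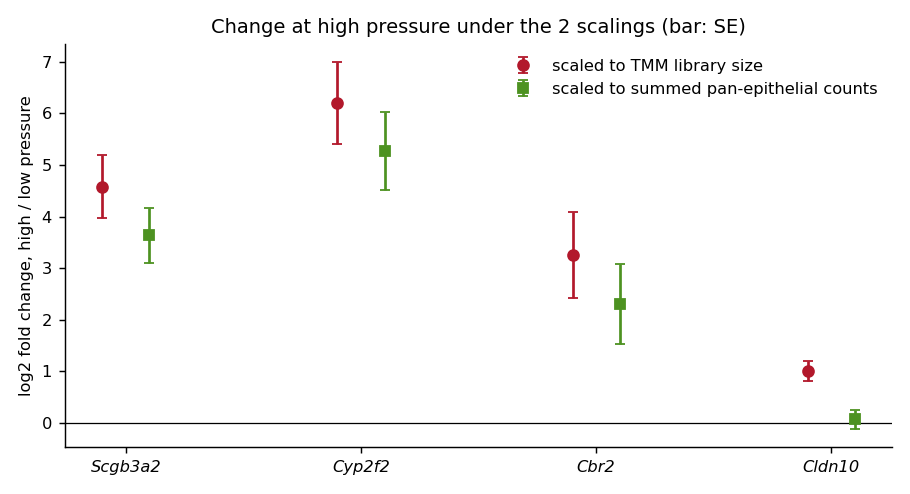
Log2 fold change of high over low pressure (vertical axis, bars show the SE) for 4 secretory genes, scaled to the TMM library size (circles) or to summed pan-epithelial counts (squares). Rescaling lowered each value by about the median pan-epithelial change of 0.94, to 3.63, 5.27 and 2.30 for Scgb3a2, Cyp2f2 and Cbr2 and to 0.06 for Cldn10.

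Other secretory airway genes moved in the same direction as these genes at high pressure where they were called. Of 38 listed, 37 were in the tables, 23 were tested, 9 were higher and 0 were lower. The count filter has a part in this: 6 of the 23 reached its cutoff of 0.255 CPM in all 3 high pressure libraries but not in all 3 low pressure libraries, and 2 of those 6 were among the 9 called, whereas 1 reached it only in the opposite way. Wfdc2, which encodes a secreted protein abundant in airway epithelium, averaged 124 ± 6.67 CPM at high pressure and 26.2 ± 1.75 CPM at low pressure (log2 fold change 2.24, SE 0.10, adjusted p = 4.41e-05). Aldh1a1, a retinaldehyde dehydrogenase, rose by 2.08, the carboxylesterase Ces1d by 1.78 and the gel-forming mucin Muc5ac by 2.87. The aldehyde oxidase Aox3 gave 4.71, at 4.17 ± 0.766 CPM at high pressure and 0.156 ± 0.124 CPM at low pressure. Aox3 and Lypd2 are the 2 called genes that reached the cutoff in all 3 high but not all 3 low pressure libraries. Several defining secretory genes of mature airways were barely present: Bpifa1, Tff2 and the 3 Dcpp genes had 0 counts at high pressure, and Muc5b averaged 0.391 ± 0.103 CPM at high pressure and 0.134 ± 0.0440 CPM at low pressure (log2 fold change 1.51, adjusted p = 0.203).

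Close relatives of the 7 genes were called higher in 9 of 14 tested cases and lower in 0, with a median of 0.79. Among the 9, Cldn3, Cldn4, Cldn6 and Cldn7 are also in the pan-epithelial list, whose median was 0.94. Cldn18, the claudin of the lung epithelium, rose by 2.55 (adjusted p = 0.000393), more than Cldn10, whereas the claudins Cldn3 (0.94), Cldn6 (0.82) and Cldn7 (0.75) rose by amounts nearer to it. The carbonyl reductase Cbr3 rose by 2.49 and the related Dcxr by 1.57. The cytochrome P450 gene Cyp2s1 rose by 1.36. Among the uroplakins, Upk3b, a marker of the mesothelium that covers the lung, averaged 189 ± 39.5 CPM at high pressure and 132 ± 12.6 CPM at low pressure (0.51, adjusted p = 0.0429), far above Upk3a.

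Regulators tied to secretory fate were called higher in 12 of 21 tested cases and lower in 1, Foxp1, a forkhead repressor (-0.71). Their median was 0.47, against 0.94 for the pan-epithelial genes, and Grhl2 and Elf3 are in both lists. Nkx2-1 averaged 176 ± 7.62 CPM at high pressure and 84.5 ± 5.61 CPM at low pressure (1.06, SE 0.09, adjusted p = 0.000405). The leucine zipper factor Cebpb rose by 1.67 (adjusted p = 0.000375), the Krüppel-like factor Klf5 by 1.42, the ETS factor Ehf by 2.0 and Foxa2 by 0.79. Sox2, which marks the proximal airway, averaged 9.24 ± 3.44 CPM at high pressure and 10.1 ± 1.75 CPM at low pressure and gave no call (-0.13, adjusted p = 0.778). In the Notch pathway 2 of 19 tested genes were higher and 4 were lower, with a median of -0.23. The ligand Jag1 fell by 0.92, the receptor Notch2 by 0.56 and the targets Hey1 and Hey2 by 1.18 and 3.26, while the modifier Lfng rose by 0.62 and the ligand Jag2 by 0.38. The targets Hes1 (-0.13), Heyl (-0.69) and Nrarp (0.10) gave no call. Hey2 stood at 0.107 ± 0.130 CPM at high and 1.04 ± 0.112 CPM at low pressure (adjusted p = 0.0477). It reached the filter cutoff of 0.255 CPM in all 3 low but not all 3 high pressure libraries.

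**Figure D4:**
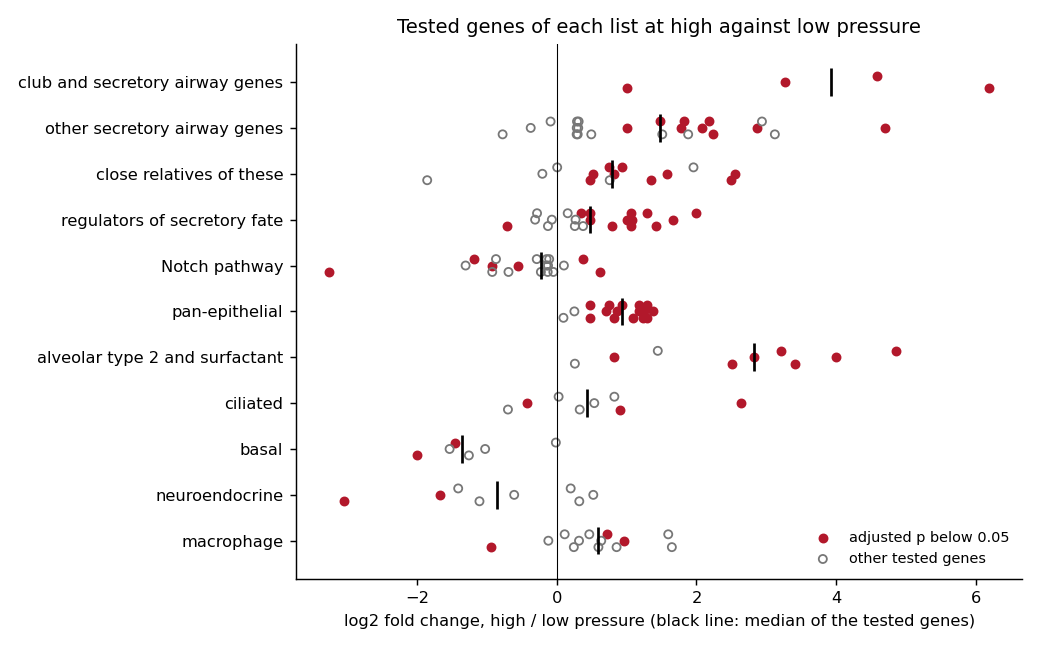
Log2 fold change of high over low pressure (horizontal axis) for every tested gene of each list, with filled points for an adjusted p below 0.05 and a black line at the list's median. The 4 tested club and secretory genes lay between 1.0 and 6.19, and the pan-epithelial genes between 0.10 and 1.38.

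Markers of other cell types were read beside these changes. Alveolar type 2 and surfactant genes were higher in 7 of 9 tested cases (2 of the 7 reached the filter cutoff in all 3 high but not all 3 low pressure libraries), with Sftpc, the surfactant protein C gene, at 161 ± 43.4 CPM at high pressure and 5.62 ± 3.22 CPM at low pressure, and a list sum of 387 to 527 CPM at high pressure and 137 to 190 CPM at low pressure, where Sftpd had 0 counts. Of 9 alveolar type 1 genes 6 were higher and 0 were lower (median 0.995), and of 8 mesothelial genes 3 were higher and 0 were lower. Of 10 endothelial genes 0 were higher and 3 were lower. Of 8 tested ciliated genes 2 were higher, among them Foxj1, the master regulator of motile cilia (4.62 ± 2.96 CPM at high and 0.738 ± 0.169 CPM at low pressure, log2 fold change 2.64), and 1, Rfx3, was lower. Of 6 basal cell genes 0 were higher and 2 were lower, Trp63 (-2.0) and Krt14 (-1.46). Cbr2 is also known from tissue macrophages. The summed CPM of 14 macrophage markers was 167 to 241 at high pressure and 134 to 174 at low pressure, with none of them at 0 in either group, 2 of 13 tested higher and 1 lower, and Mrc1 gave 0.60 (adjusted p = 0.196). The ribosomal protein share of counts was 3.06% to 3.37% at high pressure and 1.93% to 2.20% at low pressure. The part of macrophages in the Cbr2 change, and of the other shifts in these genes, was not tested.

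In fresh lungs Scgb3a2 showed the plainest course. It stood at 1.64, 3.34 and 0.401 CPM at E12.5, at 1.48, 3.81 and 8.50 CPM at E13.5 and at 19.3, 45.4 and 29.4 CPM at E14.5. All E14.5 libraries lay above all earlier ones, whereas E12.5 and E13.5 overlapped. E14.5 exceeded E12.5 by 4.11 on the log2 scale (SE 0.84, 95% interval 2.19 to 6.04), with an adjusted p of 0.114 by edgeR in the fit without a replicate term, in which 0 of 14242 genes passed (0% called; 1328 genes had an unadjusted p below 0.05, and DESeq2 called 457, Scgb3a2 among them at an adjusted p of 7.50e-06). Libraries with the same replicate number deviated together in the fresh table, so a fit with the number as a block is given beside it. With the block the value was 4.09 (SE 0.77, adjusted p = 0.0420), in a comparison where 7.33% of tested genes were called higher and 11.0% in either direction. Without replicate 1 of every stage it was 4.32 with the block and not called (adjusted p = 0.175). Scaled to the epithelial sum, with the block, it was 3.95 (SE 0.85, adjusted p = 0.0945).

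Cbr2 and Cyp2f2 had few reads in fresh lungs, with at most 1 read in any E13.5 library. Cbr2 stood at 0.771, 0.181 and 0 CPM at E12.5, at 0, 0.0521 and 0 CPM at E13.5, and at 2.90, 0.839 and 0.486 CPM at E14.5. The pooled reads were 20, 1 and 83 over the 3 stages. E14.5 and E12.5 overlapped, since E12.5 replicate 1 exceeded E14.5 replicate 3. The log2 difference of E14.5 over E12.5 was 2.13 (adjusted p = 0.623) and, with the block, 2.25 (SE 0.56, adjusted p = 0.0266). E14.5 over E13.5 was called with the block (adjusted p = 0.00578, 4.15% of genes called higher and 6.01% in either direction), on 83 reads against 1, a ratio of 85.4 (counting interval 14.9 to 3412). The fit without the block gave an adjusted p of 0.301. Without replicate 1, Cbr2 had too few counts to be tested.

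Cyp2f2 had 0, 1 and 0 reads at E12.5, 0 reads in each E13.5 library and 36, 6 and 3 reads at E14.5, or 1.80, 0.315 and 0.162 CPM. It did not pass the filter. The pooled ratio of E14.5 over E12.5 was 49.1 (counting interval 8.38 to 1984). E14.5 stood 15.4-fold above a limit of 3 reads over the E13.5 group, a value that leaves out counting error in the E14.5 reads. With no filter, E14.5 over E12.5 gave 5.12 without the block (adjusted p = 0.289), DESeq2 gave 5.42 (adjusted p = 0.0645), and of these fits only the one with both the block and no filter, chosen after seeing the data, called it (4.93, SE 1.16, adjusted p = 0.0168, where 5.54% of 18808 genes were called higher and 8.41% in either direction). Of the 45 reads at E14.5, 36 came from replicate 1, the library with the highest epithelial sum (1420 CPM, against 702 and 857 CPM in the others). Cbr2 was likewise highest in replicate 1 at E14.5, while Scgb3a2 was lowest there.

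Cldn10 stood at 11.1, 8.08 and 2.51 CPM at E12.5, at 7.82, 8.65 and 8.45 CPM at E13.5 and at 17.6, 13.6 and 14.7 CPM at E14.5. The E14.5 libraries exceeded all earlier ones, by 1.08 over E12.5 (SE 0.44, adjusted p = 0.481) and, with the block, by 1.17 (SE 0.41, adjusted p = 0.128). Scaled to the epithelial sum, with the block, the value was 1.01 (SE 0.23, 95% interval 0.56 to 1.47, adjusted p = 0.000591). On that scale, chosen after seeing the data, 3.09% of genes were called higher (440 of 14242) and 527 genes were called lower. E12.5 replicates 1, 2 and 3 stood there at 9.50, 10.5 and 4.0 counts per 1000. Thus Cldn10 at E14.5 exceeded E12.5 relative to epithelial RNA (16.3 ± 3.56 against 8.0 ± 3.50 counts per 1000, SD, n = 3), whereas the same scaling left the pressure difference at 0.06. No test was made of the difference between these 2 values, which come from separate tables.

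Between E14.5 and E12.5, Scgb3a2, Cyp2f2 and Cldn10 did not overlap, as did 8.76% of tested genes in that direction. Between E14.5 and E13.5 those 3 and Cbr2 did not overlap, against 7.84% of tested genes. Scgb3a2 exceeded E13.5 by 2.77 (SE 0.78, adjusted p = 0.350) and by 2.79 with the block (adjusted p = 0.109). Over that day DESeq2 called 270 genes in all, among them Scgb3a2 (adjusted p = 0.0183), Cyp2f2 (0.0262, against a group with 0 reads) and Cbr2 (0.0145, against 1 read). From E12.5 to E13.5 none of the 3 tested genes was called in either edgeR fit (0.00702% of all genes were called in either direction with the block, 123 genes had an unadjusted p below 0.05 without it, and DESeq2 called 0 genes), and none was non-overlapping in the upward direction, as were 1.59% of tested genes: Scgb3a2 gave 1.35 (95% interval -0.45 to 3.14), Cldn10 0.20 (-0.81 to 1.21) and Cbr2 -3.80 on 1 read against 20. The second-day step exceeded the first by 1.42 for Scgb3a2, with an interval of -1.67 to 4.50, and the edgeR test of that difference called none of the 3 genes with or without the block (0.0211% of all genes were called with it, all of them higher, 233 genes had an unadjusted p below 0.05 without it, and DESeq2 called 4 genes). Upk3a had 9, 6 and 8 reads over the 3 stages.

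The lists beside these genes differed in their share of calls at E14.5 over E12.5. With the block, 7 of 10 endothelial genes, 5 of 8 tested alveolar type 1 genes, 6 of 8 striated muscle genes and 2 of 7 tested alveolar type 2 genes were higher, none of these was lower, and 3 of 8 mesothelial genes were higher and 1 was lower. In the same fit, 1 of 14 tested secretory genes was higher, the flavin monooxygenase Fmo2 (3.49, adjusted p = 0.000604), and 1 was lower, the P450 reductase gene Por (-0.26). Of 21 regulators Klf5 (1.17) and Elf5 (1.19) were higher and Foxp4 (-0.78) and Foxp2 (-0.37) were lower. Of 12 tested relatives only Upk3b was called (0.64). In the Notch pathway 5 of 19 genes were higher, among them the target Nrarp (0.72) and the ligands Dll1 (0.84) and Jag2 (0.78), and Notch3 was lower (-0.32). Of the 17 pan-epithelial genes 0 were called by edgeR with the block, with a median of 0.22 against -0.00 for all genes. Striated muscle genes, summed, reached 345 to 1489 CPM at E14.5 against 8.02 to 39.5 CPM at E12.5; the part of a changed tissue mix in these differences was not tested.

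Across the 5 groups the order of levels differed between genes. Cultured and fresh lungs stand in separate tables, so culture and table cannot be told apart. Scgb3a2 was highest at E14.5 and at high pressure, which overlapped, followed by E13.5, E12.5 and low pressure, which overlapped as neighbours. Cyp2f2 and Cbr2 were highest at high pressure, with no overlap with E14.5, which came next, and then low pressure, E12.5 and E13.5, each overlapping its neighbour. Cldn10 was highest at high pressure, then E14.5 without overlap, then low pressure, E13.5 and E12.5. Low pressure overlapped E14.5 but not E13.5, and E13.5 overlapped E12.5. Upk3a groups all overlapped their neighbours.

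In a fit of all 15 libraries, high pressure lungs were compared with E14.5 lungs, which are the same number of days past E12.5. Scgb3a2 averaged 29.1 ± 16.4 CPM at high pressure and 31.3 ± 13.2 CPM at E14.5 (SD, n = 3 each). The log2 difference was -0.10, with a 95% interval of -1.61 to 1.40. Cyp2f2 averaged 10.5 ± 3.56 CPM at high pressure and 0.759 ± 0.906 CPM at E14.5, a log2 difference of 3.78 (SE 0.94, adjusted p = 0.00775). Cbr2 (7.29 ± 2.84 CPM at high pressure, 1.41 ± 1.31 CPM at E14.5) and Cldn10 (24.1 ± 2.83 and 15.3 ± 2.07 CPM) gave 2.37 (adjusted p = 0.0721) and 0.66 (adjusted p = 0.161). Of the 4 tested genes 1 was thus called higher, where 19.9% of all tested genes were called higher and 41.2% in either direction. Cyp2f2, Cbr2 and Cldn10 were higher at high pressure without overlap, as were 28.4% of tested genes. Per 1000 counts of the epithelial sum Scgb3a2 averaged 12.8 ± 6.88 at high pressure and 37.5 ± 25.7 at E14.5, with overlapping libraries. The order of the 2 groups was reversed for Cldn10 on that scale. It was lower at high pressure without overlap, at 9.50 to 11.5 against 12.4 to 19.4 at E14.5. Cyp2f2 (4.68 ± 1.64 at high pressure, 0.635 ± 0.563 at E14.5) and Cbr2 (3.22 ± 1.17 and 1.27 ± 0.741) averaged higher at high pressure on that scale as well. These differences on the epithelial scale were not tested.

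Low pressure lungs compared with the E12.5 lungs from which culture began gave 0 calls among the 4 tested genes by edgeR or DESeq2 (0 had an unadjusted p below 0.05 by edgeR), and groups that overlapped for all 4, where 24.0% of tested genes lay wholly higher. In that comparison 17.6% of all tested genes were called higher and 32.5% in either direction. Scgb3a2 averaged 1.24 ± 1.06 CPM at low pressure and 1.79 ± 1.48 CPM at E12.5, a log2 difference of -0.56 with an interval of -2.28 to 1.16. Cldn10 averaged 12.1 ± 2.86 CPM at low pressure and 7.22 ± 4.35 CPM at E12.5 (0.74, interval -0.05 to 1.53). Cbr2 gave 1.24 (interval -1.19 to 3.68). Cyp2f2 gave 2.84 on 14 reads against 1, with an interval of -1.43 to 7.11. This comparison shares its low pressure libraries with that of high and low pressure, and its E12.5 libraries with those of the stages.

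Between the genes, levels per kilobase of exon placed Scgb3a2 above the rest at high pressure. CPM per kilobase there was 33.1 ± 18.6 for Scgb3a2, 9.32 ± 1.09 for Cldn10, 5.49 ± 2.14 for Cbr2, 5.19 ± 1.76 for Cyp2f2, 0.116 ± 0.117 for Scgb3a1 and 0.0841 ± 0.107 for Upk3a (SD, n = 3). At low pressure Cldn10 led with 4.65 ± 1.1, and Scgb3a2 stood at 1.41 ± 1.2. At E14.5 Scgb3a2 stood at 35.6 ± 14.97, Cldn10 at 5.91 ± 0.800, Cbr2 at 1.06 ± 0.983 and Cyp2f2 at 0.375 ± 0.447.

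The 4 genes with enough counts did not share 1 pattern over the 15 libraries. Pearson's r of log2 CPM between pairs of them ran from 0.536 (Scgb3a2 with Cbr2) to 0.807 (Cbr2 with Cldn10). These values describe libraries of the same groups, which share their group differences, and carry no test. Among 12746 genes, those most like Scgb3a2 were Mid1ip1 (r = 0.946), a regulator of lipid synthesis, Lamp3 (0.922), a lamellar body membrane protein of alveolar type 2 cells, and Arsb (0.914), a lysosomal sulfatase. For Cyp2f2, with 0 reads in 6 libraries, they were Ttc7 (0.954), Cldn18 (0.946) and Epn3 (0.945). For Cbr2 they were Inpp5k (0.977), Ntn4 (0.934), a netrin, and Rgs10 (0.921), and for Cldn10 they were Slc40a1 (0.964), the iron exporter ferroportin, Mr1 (0.960) and Ces2g (0.956), a carboxylesterase. With a prior count of 0.5 in place of 2, Ttc7 and Cldn18 were no longer among the 3 nearest to Cyp2f2, nor Rgs10 among those nearest to Cbr2.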

How the data were processed

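The authors deposited whole-number read counts for 23420 genes in 2 tables, 6 cultured and 9 fresh libraries. The submitters' processing notes name cutadapt 1.6, Bowtie 1.1.1, TopHat, HTSeq, DESeq2 and build mm10. Which annotation and strand setting HTSeq used is not given in the sources used here. Normalized and log-scale versions of the tables were not used here.

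Each table was fitted with edgeR 4.0.16 (R 4.3.3, limma 3.58.1): TMM scaling, filterByExpr by group, robust quasi-likelihood test, Benjamini-Hochberg adjustment over all genes tested, threshold 0.05. Comparisons between cultured and fresh lungs used all 15 libraries in 1 fit. All adjusted p-values are edgeR's unless DESeq2 1.42.0 is named. SE is the fold change divided by the square root of F. In fresh lungs, same-numbered libraries of different stages correlated in their deviations from group means (9 pairs, r from 0.397 to 0.838, against -0.736 to 0.625 for other pairs). What the numbers mark is not in the labels. In the cultured table same-numbered pairs gave -0.0124 to 0.0461. Counts of no 2 libraries of a group agreed within sampling noise. A group with 0 reads was set at a limit of 3 reads over the group, and other low values were not floored. Counting intervals are 95%, exact. The code was tested on simulated data. The 7 genes, the 17 gene lists beside them and the tests were chosen with earlier results of these data known. Named genes are the 7, the genes of each list with the smallest p and fixed markers, and the 3 genes most correlated with each tested gene with a mean of at least 1 CPM (log2 CPM, prior count 2). Other genes of lists were named after their values were seen.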

Additional observations from a re-analysis of the deposited data

How the results depend on the processing

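The 4 pressure fold changes kept their direction under every setting run. The count of called genes at high against low pressure was 4, was 3 to 4 with 1 library left out, 3 by DESeq2 and 2 with all 15 libraries in 1 fit, where Cbr2 (adjusted p = 0.0719) and Cldn10 (0.111) were not called. For the cultured libraries, whose numbers pair no samples, a replicate block left 4 called. In fresh lungs the count called at E14.5 over E13.5 was 0 without a block, 3 by DESeq2 (of 270 genes it called in all), 1 with the replicate block, 1 with a term for replicate 1, 2 with the block and no filter and 1 with the block and epithelial scaling. At E14.5 over E12.5 the count was 0, and 1 (of 457 genes DESeq2 called in all), 2, 2, 2 and 2 under the same settings, but the genes differed. With the block they were Scgb3a2 and Cbr2 (7.33% of all tested genes called higher). With the block and no filter they were Cyp2f2 and Cbr2 (5.54%). With the block and epithelial scaling they were Cbr2 and Cldn10 (3.09%). At E14.5 over E13.5 these 3 shares were 4.15%, 3.28% and 2.09%. With the block and no filter Scgb3a2 was not called at E14.5 over E12.5 (adjusted p = 0.0624). For the difference between the day steps the count was 0, and 1 (Cbr2, 9.21, adjusted p = 0.00383) with the block and epithelial scaling, where 0.154% of all tested genes were called higher. Over all genes, the block called 1561 at E14.5 over E12.5 and 856 at E14.5 over E13.5, against 0 without it, 1 at E13.5 over E12.5 and 3 for the difference of steps; the cause was not tested.

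With 1 replicate left out, the count ran from 1 to 2 for high pressure over E14.5 (Cbr2 was added without E14.5 replicate 1, adjusted p = 0.0283) and from 0 to 1 for low pressure over E12.5 (Cldn10 was added without E12.5 replicate 1, adjusted p = 0.0308). Without replicate 1 of all fresh stages the counts were 2 and 1. Uncalled fold changes turned sign in 7 cases. Scgb3a2 at high pressure over E14.5 was 0.032, 0.18 and 0.26 without high pressure replicates 1 and 3 and E14.5 replicate 2 (range with 1 replicate left out, -0.67 to 0.26). At low pressure over E12.5, Scgb3a2 was 0.26 without E12.5 replicate 2 (range -1.53 to 0.26) and Cyp2f2, at 2.84 with all libraries, was -0.12 without low pressure replicate 3 (range -0.12 to 5.02). Cldn10 at E13.5 over E12.5 was -0.20 without E12.5 replicate 3 (range -0.20 to 0.68), and its difference of steps was -0.030 with the block and without replicate 1. Of the fold changes under other settings 275 kept direction and call, 19 gained a call and 8 lost it. The Cbr2, Cyp2f2, Scgb3a1 and Upk3a results are limited by few reads.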

Other observations

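Thyroid markers were checked because Nkx2-1 is also a thyroid gene. The summed CPM of 5 such genes was 3.73 to 5.42 at high pressure, 8.05 to 11.6 at low pressure and 10.2 to 20.1 over the fresh stages. In fresh lungs Hhex averaged 9.30 CPM at E12.5 and 14.0 CPM at E14.5. Tg averaged 1.23 and 0.82 CPM and Tshr 2.40 and 0.71 CPM at those stages, and Pax8 had 0 counts at E13.5 and E14.5. Mesothelial Msln rose by 3.91 at high pressure (8.62 ± 0.673 CPM, against 0.573 ± 0.150 CPM at low pressure), while the mesothelial marker Wt1 gave no call (0.36, adjusted p = 0.166).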
